A study of Nannochloropsis oceanica with 6 samples.

Results

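Transcript levels of 3 neighbouring genes for plasma membrane-type proton ATPases, NO12G00370, NO12G00380 and NO12G00390, are described in Nannochloropsis oceanica IMET1, a small marine eustigmatophyte alga. These 3 loci, of 10633 genes measured, have consecutive locus numbers. They were named by identifier, with their counts in both conditions known from earlier results. Their levels under the 2 conditions are therefore given as a description, without a test. RNA with poly(A) tails came from 6 column reactors, each its own culture. The low CO2 group was 3 cultures switched to air with 0.04% CO2 after 1 h at 5%, and the high CO2 group was 3 cultures kept on air with 5% CO2. All 6 shared the strain, the light, the Tris-buffered medium and the sampling time of 24 h.

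Plasma membrane proton ATPases are P-type pumps. Each works as a large membrane protein that takes a phosphate from ATP onto itself and moves protons out of the cell. The resulting proton gradient and membrane voltage drive the uptake of ions and nutrients through coupled transporters, and the pumps take part in the control of pH inside the cell. In plants and fungi their activity is held back by an inhibitory tail, and in plants 14-3-3 proteins bind that tail and release the pump.

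The descriptions in the deposited tables match the name. All 3 loci carry the KEGG orthologue named PMA1/PMA2, the eukaryotic orthologous group of plasma membrane proton-transporting ATPases, a Swiss-Prot match to proton ATPase 1A of Leishmania donovani, and a protein match in the green alga Volvox carteri. Of the 10633 genes, 4 are in that orthologous group. The other one, NO17G00440, has a different locus number range and matches proton ATPase 1B of Leishmania donovani. NO12G00370 is 5363 bases long with 1 transcript, and NO12G00390 is 5078 bases long with 1 transcript. NO12G00380 has 2 transcripts, of which 1 has an identifier outside the locus numbering, and its deposited length differs between libraries. The sequences of these loci were not used here.

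The libraries held 4620234 to 6112822 estimated counts. Low CO2 replicate 1 and high CO2 replicate 3 stood apart from their groups across all genes, so values are also given without them. Levels are in TPM, which scale counts by gene length and library so that different genes can be set side by side. In bulk RNA, a level that is higher in every cell cannot be told apart from one that is higher in some of the cells.

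NO12G00380 had the largest difference in level among the 3 loci. Its levels were 2619.9, 1394 and 1419 TPM in low CO2 replicates 1, 2 and 3, against 216, 220.2 and 249 TPM in high CO2 replicates 1, 2 and 3. All 3 low CO2 libraries were above all 3 high CO2 libraries. The means were 1811 ± 701 TPM in low CO2 and 228 ± 17.8 TPM in high CO2 (SD, n = 3 each). The log2 fold change fitted across all genes (low minus high CO2) was 2.78 (SE 0.35), a 6.88-fold higher level in low CO2. Among all genes ranked by TPM, the locus stood at places 26, 54 and 53 in the low CO2 libraries, against 949, 911 and 803 in the high CO2 libraries.

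NO12G00370 was the most abundant of the 3 at 5% CO2 and differed little between the groups. It had 1132, 637 and 723.5 TPM in low CO2 replicates 1, 2 and 3, against 716, 715 and 707 TPM in high CO2 replicates 1, 2 and 3. The groups overlapped, with low CO2 replicate 1 alone well above the rest. The means were 831 ± 265 TPM in low CO2 and 712 ± 4.99 TPM in high CO2 (SD, n = 3 each). The fitted log2 fold change was 0.11 (SE 0.28), and it was -0.30 (SE 0.11) without low CO2 replicate 1, so that library decided its sign.

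NO12G00390 was the least abundant locus in every library. Its levels were 119, 93.4 and 123 TPM in low CO2 replicates 1, 2 and 3, against 27.6, 25.05 and 8.60 TPM in high CO2 replicates 1, 2 and 3. The groups did not overlap, and high CO2 replicate 3 was the lowest library. The means were 112 ± 16.2 TPM in low CO2 and 20.4 ± 10.3 TPM in high CO2 (SD, n = 3 each), and the fitted log2 fold change was 2.35 (SE 0.38), a 5.09-fold higher level in low CO2. The locus was at places 1864, 2574 and 1862 by TPM in low CO2, against 5895, 6082 and 7746 in high CO2.

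**Figure D1:**
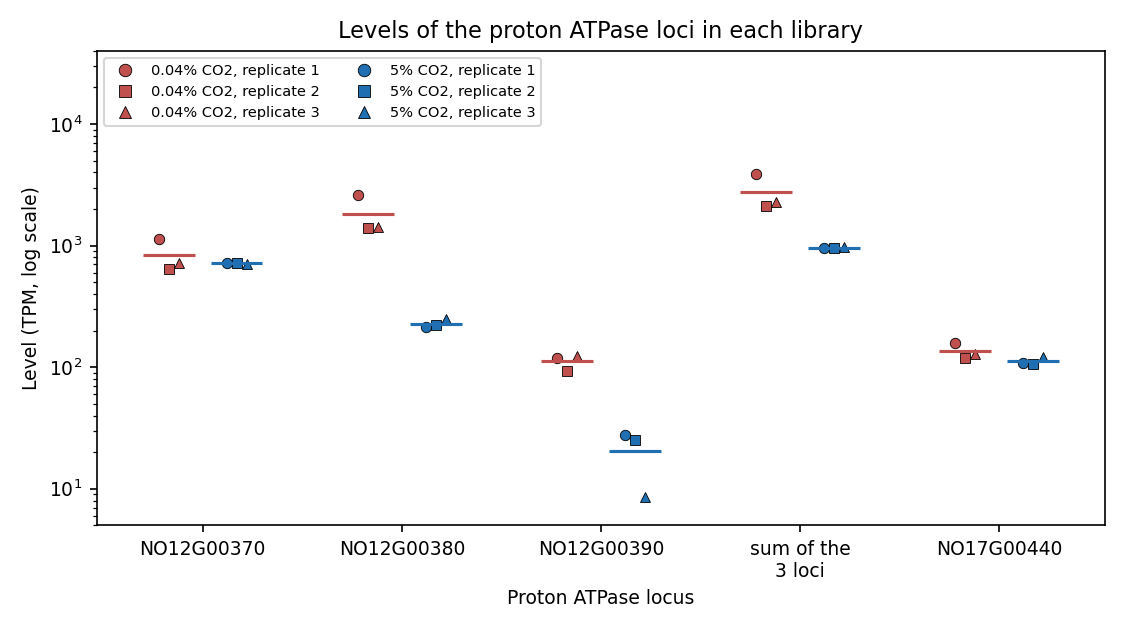
Levels (TPM, log scale) of the 3 loci, their sum and NO17G00440 in each library, with 0.04% CO2 in red to the left of 5% CO2 in blue, a marker for each replicate and a line at the group mean. NO12G00380, NO12G00390 and the sum lie higher in every 0.04% library than in any 5% library, while NO12G00370 and NO17G00440 overlap.

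In the test across all 9244 genes that passed the filter on low counts, 2 of the 3 loci passed (NO12G00380 and NO12G00390), where 2.12% of all genes tested were called and 1.22% were called as higher in low CO2 (quasi-likelihood test of edgeR, with an adjusted p below 0.05 by the Benjamini-Hochberg method). TPM did not overlap between the groups at the same 2 loci, as was the case for 24.7% of all genes tested, and for 16.0% with low CO2 higher. The loci were chosen from this comparison, so nothing is read from these counts. The authors' deposited table of 217 genes gives log2 fold changes of 2.79 for NO12G00380 and 2.36 for NO12G00390.

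The order of the 3 loci differed between conditions. Per length, NO12G00380 was above NO12G00370 in each low CO2 library, with ratios of 2.31, 2.19 and 1.96, against 0.302, 0.308 and 0.352 in the high CO2 libraries. The mean ratio was 2.15 ± 0.179 in low CO2 and 0.321 ± 0.0274 in high CO2 (SD, n = 3 each). Low CO2 replicate 1, which had the highest levels of NO12G00370 and NO12G00380, had a ratio near those of the other low CO2 libraries. NO12G00390 stayed well below both in every library. Its ratio to NO12G00380 was 0.0664 ± 0.0208 in low CO2 and 0.0920 ± 0.0502 in high CO2 (SD, n = 3 each), and these groups overlapped.

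Counting between the 3 loci rests on divided reads. Estimated counts of NO12G00370 and NO12G00390 were fractional (more than 0.004 from a whole number) in 6 of 6 libraries, and those of NO12G00380 in 5 of 6. Their sum was whole (within 0.011) in all 6. It came to 49005, 31504 and 36756 counts in low CO2 replicates 1, 2 and 3, against 16284, 16114 and 16256 in high CO2 replicates 1, 2 and 3. The summed counts do not depend on how reads were divided among the 3 loci, whereas the value of each locus does. The summed TPM also depends on it, since each locus is scaled by its own length. The counts of NO17G00440 were whole in all 6 libraries. Fractional counts were not particular to these loci. They occurred at 17.5% of all genes in high CO2 replicate 3 and up to 19.8% in low CO2 replicate 3. Of the loci with adjoining numbers, NO12G00320, NO12G00330, NO12G00340, NO12G00430 and NO12G00440 were fractional in 6 libraries. NO12G00350 and NO12G00360 were fractional in 5, and NO12G00410 and NO12G00420 in 0.

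The summed counts were 1.06%, 0.562% and 0.601% of all counts in low CO2 replicates 1, 2 and 3, against 0.317%, 0.317% and 0.337% in high CO2 replicates 1, 2 and 3. The groups did not overlap, and the low CO2 group varied far more among its cultures. Per length, the sum was 3871, 2124 and 2266 TPM in low CO2, against 959, 959.9 and 964 TPM in high CO2. Its mean was 2754 ± 970.4 TPM in low CO2 and 961 ± 2.54 TPM in high CO2 (SD, n = 3 each). Entered in the fit as 1 row in place of the 3 loci, the sum had a log2 fold change of 1.15 (SE 0.29), a 2.23-fold higher level in low CO2. It did not pass the threshold that NO12G00380 and NO12G00390 passed. The loci were chosen from this comparison, so nothing is read from that either. Without low CO2 replicate 1 the log2 fold change was 0.71 (SE 0.10), and without that library and high CO2 replicate 3 it was 0.77 (SE 0.04).

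The shares show the same change in makeup. NO12G00370 held 37.8%, 38.5% and 40.5% of the summed counts in low CO2 replicates 1, 2 and 3, against 80.0%, 79.9% and 79.0% in high CO2 replicates 1, 2 and 3. NO12G00380 held 58.4%, 56.2% and 53.0% in low CO2, against 17.1%, 17.5% and 20.1% in high CO2. NO12G00390 held 3.75%, 5.32% and 6.53% in low CO2, against 2.91%, 2.64% and 0.909% in high CO2. For all 3 shares the low CO2 libraries lay apart from the high CO2 libraries, and the shares of the first 2 loci varied by a few percentage points within a group. The difference, low minus high CO2, was -40.7 percentage points for NO12G00370, 37.7 for NO12G00380 and 3.04 for NO12G00390. Exact (Clopper-Pearson) 95% intervals were narrow, at 37.4% to 38.2% for NO12G00370 in low CO2 replicate 1 and 0.770% to 1.07% for NO12G00390 in high CO2 replicate 3. They cover counting error only, and neither the division of shared reads nor the spread between cultures.

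**Figure D2:**
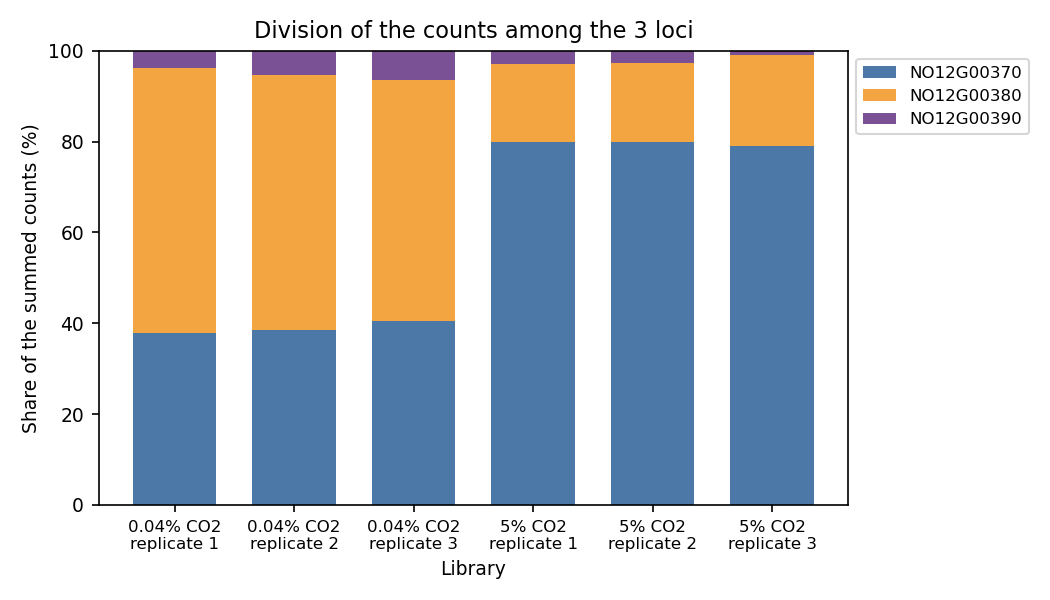
Share (%) of the summed counts held by each of the 3 loci in each library, with the 0.04% CO2 libraries on the left. NO12G00380 holds 53.0% to 58.4% of the counts at 0.04% CO2 and 17.1% to 20.1% at 5% CO2, and NO12G00370 the larger part at 5%.

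The deposited length of NO12G00380 also differed. This length varies between libraries only at genes with more than 1 transcript, and it enters the TPM of the locus. It was 3663, 3665 and 3656 bases in low CO2 replicates 1, 2 and 3, against 3876, 3879.8 and 3934 bases in high CO2 replicates 1, 2 and 3. The groups did not overlap, and the low CO2 values lay within a few bases of each other. The means were 3661 ± 5.07 bases in low CO2 and 3897 ± 32.6 bases in high CO2 (SD, n = 3 each). The difference was -235 bases (exact 2-sided permutation test p = 0.1, the smallest that 3 against 3 allows). Groups that do not overlap always give this p, and the locus was chosen from this comparison, so nothing is read from it. Of 3339 genes with several transcripts and a mean of at least 50 counts, lengths did not overlap between the groups at 18.9%, and 6.65% had a difference of this size or more. Levels of the separate transcripts were not analysed here.

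**Figure D3:**
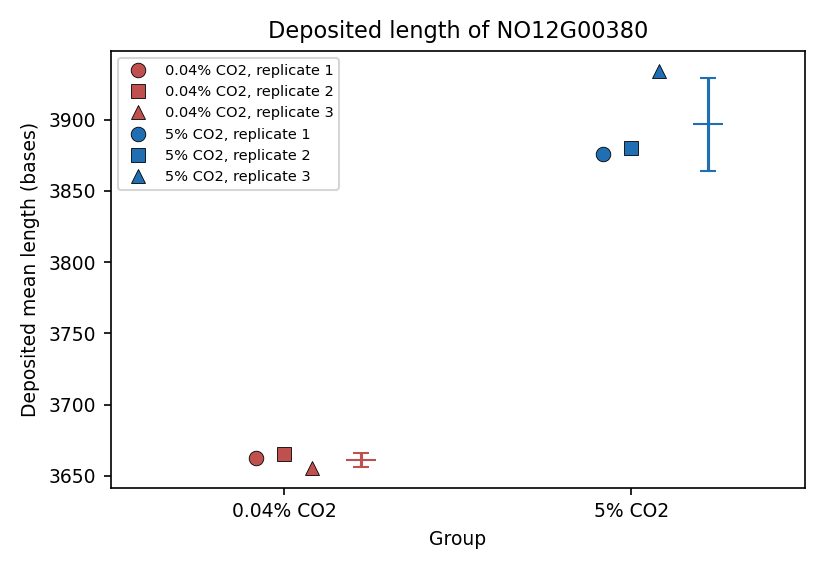
Deposited length (bases) of NO12G00380 in each library, with 0.04% CO2 left of 5% CO2 and the mean and SD beside the points (n = 3 each). The axis does not start at 0. The 0.04% libraries lie between 3656 and 3665 bases and the 5% libraries between 3876 and 3934.

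Low CO2 replicate 1 was the highest library in TPM for the sum and for 2 of the 3 loci. On the log2 CPM scale, which sets counts relative to library size, it lay above the mean of low CO2 replicates 2 and 3 by 1.00 for NO12G00370, 1.16 for NO12G00380, 0.41 for NO12G00390 and 1.06 for the sum. High CO2 replicate 3 lay within 0.38 of the mean of replicates 1 and 2 at the first 2 loci but differed by -1.43 at NO12G00390. Gene length moved with these libraries: across 1212 tested genes of at least 3600 bases, the median log2 difference of low CO2 replicate 1 from the other low CO2 libraries was -0.20, and that of high CO2 replicate 3 from the other high CO2 libraries was -0.13. At the 3 loci the difference was above 0 in low CO2 replicate 1. In high CO2 replicate 3 it was below 0 at NO12G00390 and above 0 at NO12G00370 and NO12G00380. The part of gene length in the results was not tested beyond the fit with the length trend removed. In that fit the sum had a log2 fold change of 1.08 (SE 0.35).

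The fourth gene of the orthologous group was then compared. NO17G00440 had 157, 118 and 129 TPM in low CO2 replicates 1, 2 and 3, against 109, 106 and 120.1 TPM in high CO2 replicates 1, 2 and 3. The groups overlapped. Its log2 fold change was 0.14 (SE 0.20, adjusted p = 0.728 over all genes in edgeR's quasi-likelihood test), and it passed in 0 of 14 alternative settings, with adjusted p from 0.559 to 0.935. Per length, it lay above NO12G00390 in every library and below NO12G00370. It too was highest in low CO2 replicate 1, by 0.61 on the log2 scale over the mean of the other low CO2 libraries.

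Genes with adjoining locus numbers were given for context. Of the 5 on either side, NO12G00400 was listed at 0 in every library and 9 were tested. Their log2 fold changes ran from -0.82 to -0.07, with a median of -0.64, against a median of 0.01 over all genes tested. By mean TPM, which was not scaled by TMM, NO12G00440 had 106 ± 25.3 in low CO2 and 99.7 ± 15.2 in high CO2, and NO12G00420 22.9 ± 4.24 in low CO2 and 22.5 ± 4.84 in high CO2 (SD, n = 3 each), both within the spread. The DnaJ homologue NO12G00410, a co-chaperone of HSP70, fell to 273 ± 55.3 TPM in low CO2, against 435 ± 10.1 TPM in high CO2 (SD, n = 3 each; adjusted p = 0.025 in edgeR's quasi-likelihood test). It was the 1 gene called of the 9 tested, where 2.12% of all genes tested were called in either direction. Whether it passed in the alternative settings was not examined. The other 8 did not pass, among them the RCC1 domain gene NO12G00420 and NO12G00440, described as cycloartenol synthase, an enzyme of sterol synthesis. No description is given for NO12G00320, NO12G00330, NO12G00340, NO12G00350, NO12G00360 and NO12G00430.

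**Figure D4:**
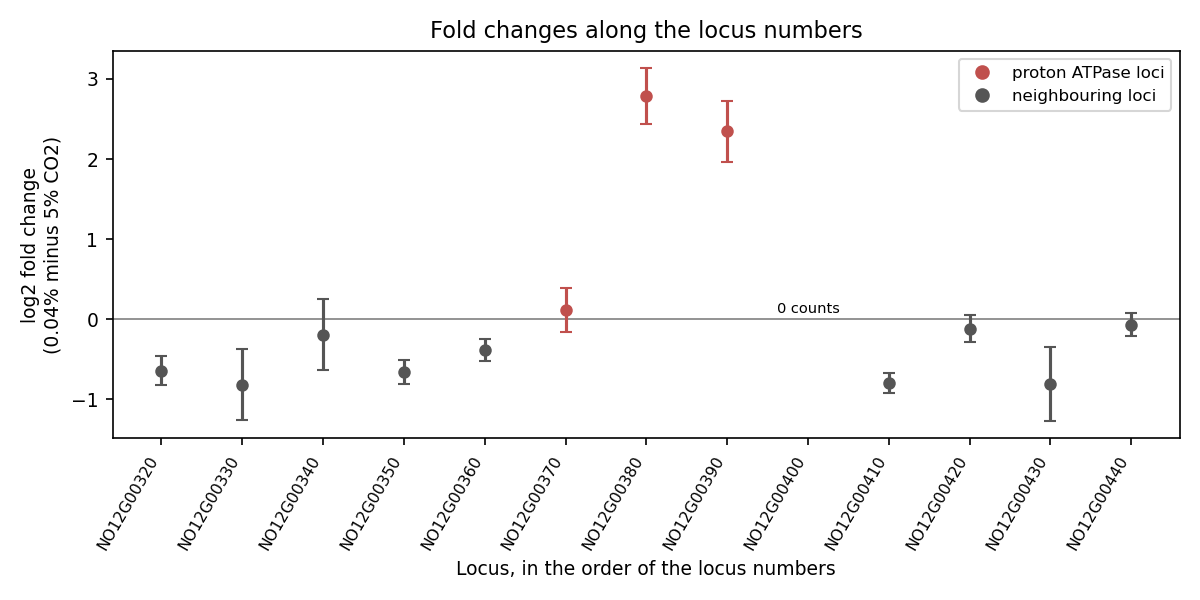
Log2 fold changes (0.04% minus 5% CO2) with their SE for the 3 proton ATPase loci (red) and the 5 loci on either side (grey), in the order of the locus numbers. The neighbours lie between -0.82 and -0.07, and the loci NO12G00380 and NO12G00390 at 2.78 and 2.35.

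Other pumps and transporters were taken as lists by word patterns on the descriptions. Each list is set beside all genes tested, of which 113 rose, 83 fell and the median log2 fold change was 0.01. The list of other P-type ATPases holds pumps annotated for calcium, other cations or phospholipids. Through the orthologous group it also holds NO17G00440, the proton ATPase described above. Of these 30 other P-type ATPases, 29 were tested, 2 rose, none fell and 27 did not pass, with a median of 0.26. Log2 fold changes were above 0 at 27 of the 29 tested, where they were above 0 at 4755 of all 9244 genes tested. With the length trend removed they were above 0 at 20 of the 29 (median 0.22). The count over all genes in that fit is not given here. By length, 19 of the 30 are at least 3600 bases, and all tested genes of that length had a median of 0.13. The 2 that rose are both annotated as calcium-transporting ATPases. NO20G02510 rose to 154 ± 8.77 TPM in low CO2, against 79.9 ± 8.77 TPM in high CO2 (adjusted p = 0.0182 in edgeR). NO16G02820 rose to 43.6 ± 7.42 TPM in low CO2, against 18.9 ± 1.16 TPM in high CO2 (adjusted p = 0.0388 in edgeR). Each passed in 8 of 14 alternatives (adjusted p up to 0.154 and 0.23), and the counts of NO16G02820 were fractional in 4 of 6 libraries. The most abundant members per length, NO11G00410 and NO20G01430, both annotated as calcium-transporting ATPase 3, had log2 fold changes of 0.01 (SE 0.24) and -0.18 (SE 0.16) and did not pass.

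Proton pumps of other membranes did not pass. Of 13 subunits of the V-type ATPase, which acidifies vacuoles and other compartments, and pyrophosphate-driven proton pumps, none passed (edgeR's quasi-likelihood test, 2 with an unadjusted p below 0.05), with a median of 0.03. DESeq2 called 1. The nearest to the threshold was the catalytic subunit A, NO02G03720, with 327 ± 18.5 TPM in low CO2 and 168 ± 41.5 TPM in high CO2 (SD, n = 3 each; log2 fold change 0.84, SE 0.16, adjusted p = 0.0501 in edgeR). The most abundant, the 116 kDa subunit a NO20G02230 and subunit F NO03G01790, had log2 fold changes of 0.23 (SE 0.10) and -0.53 (SE 0.28). Of 6 subunits of the F-type ATP synthase, which makes ATP from a proton gradient, none passed in edgeR or DESeq2 (0 with an unadjusted p below 0.05 in edgeR), with a median of -0.04. Its most abundant members were subunit 5, NO15G02190 (log2 fold change -0.24, SE 0.16), and a gamma chain, NO05G03630 (0.05, SE 0.09).

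The list of ion and nutrient transport took in antiporters and proton- or sodium-coupled carriers, and by its wording also potassium channels and sugar carriers that are not coupled to ions. Of its 64 genes, 60 were tested. Of these, 3 rose, none fell and 57 did not pass, with a median of 0.15. The phosphate permease PHO89 (NO24G00190), named after a sodium-coupled phosphate transporter of yeast, rose to 253 ± 37.6 TPM in low CO2, against 75.3 ± 9.22 TPM in high CO2 (adjusted p = 0.00104 in edgeR), and passed in 14 of 14 alternatives. A probable inorganic phosphate transporter 1-2 (NO16G02030) rose to 288 ± 64.0 TPM in low CO2, against 61.0 ± 34.4 TPM in high CO2 (adjusted p = 0.0407 in edgeR), and the potassium efflux antiporter 5 (NO05G03190) rose to 20.7 ± 1.97 TPM, against 8.24 ± 1.89 TPM (adjusted p = 0.0349 in edgeR). Each of these passed in 7 of 14 alternatives (adjusted p up to 0.176 and 0.245), and counts of NO16G02030 were fractional in 6 of 6 libraries. The most abundant members were a phosphate transporter 1-12, NO16G01940, at 787 ± 103 TPM in low CO2 and 464 ± 137 TPM in high CO2 (adjusted p = 0.195 in edgeR), and an ammonium transporter, NO09G03110, at 601 ± 57.6 TPM in low CO2 and 558 ± 172 TPM in high CO2 (adjusted p = 0.994 in edgeR). The only 14-3-3 gene, NO02G02660, had 453 ± 35.1 TPM in low CO2 and 338 ± 67.7 TPM in high CO2 (SD, n = 3 each; log2 fold change 0.30, SE 0.13, adjusted p = 0.284 in edgeR).

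List counts varied with the libraries used. Without low CO2 replicate 1 there were 8 calls among other P-type ATPases, 3 among other proton pumps and 15 among the ion and nutrient transport genes, in a fit that called 17.2% of all genes. Leaving out low CO2 replicate 2 or high CO2 replicate 1, 2 or 3 gave 0 calls among other P-type ATPases and 1 among the transporters, and leaving out low CO2 replicate 3 gave 1 and 1. The shares of all genes called in these fits were 0.516% and 0.538% without low CO2 replicates 2 and 3, and 0.376%, 0.193% and 0.727% without high CO2 replicates 1, 2 and 3. Without low CO2 replicate 1 and high CO2 replicate 3 together, 15 other P-type ATPases rose and 1 fell of 30 tested, 5 other proton pumps rose and 3 fell of 13, 2 F-type subunits rose and 2 fell of 6, and 22 transporters rose and 9 fell of 60. In that fit 36.6% of all genes were called.

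**Figure D5:**
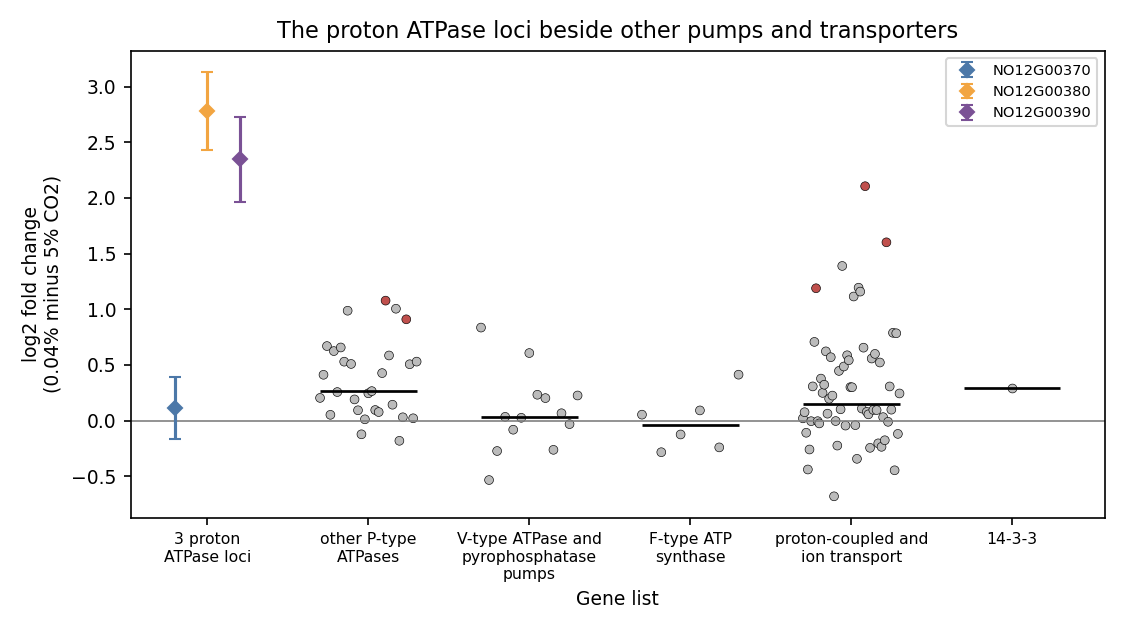
Log2 fold changes (0.04% minus 5% CO2) of the 3 proton ATPase loci (diamonds, with SE) and of the tested genes of each list (circles, red where adjusted p is below 0.05, with a line at the list median). NO12G00380 and NO12G00390, which were chosen from this comparison, lie above every listed gene, and list medians run from -0.04 to 0.30. The listed gene NO16G02030 lies near NO12G00390, at 2.11 (SE 0.37) against 2.35 (SE 0.38).

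The genes with the most similar pattern over the 6 libraries were taken from 5230 described genes by Pearson's r of log2 CPM, as a description over 6 points of which low CO2 replicate 1 is far out for NO12G00370, NO12G00380 and the sum. NO12G00380 was closest to a gamma-butyrobetaine dioxygenase (NO17G02170, r = 0.999), an enzyme of carnitine synthesis. That gene had 164 ± 20.3 TPM in low CO2 and 62.6 ± 3.14 TPM in high CO2 (SD, n = 3 each). Next came a pyruvate, phosphate dikinase (NO12G00860, r = 0.998), which makes phosphoenolpyruvate, then an alpha-mannosyltransferase (NO15G02830), a transcription elongation factor (NO25G01060) and an inositolphosphotransferase of sphingolipid synthesis (NO21G00230), with r from 0.994 to 0.995. In all, 162 genes had an r above 0.9 with NO12G00380, 172 with NO12G00370, 242 with NO12G00390 and 111 with the sum.

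NO12G00390 was closest to the V-type ATPase catalytic subunit A named above (NO02G03720, r = 0.9996) and to serine hydroxymethyltransferase 2 (NO01G02190, r = 0.996), an enzyme of folate metabolism. A monoglyceride lipase (NO11G01670), a mitochondrial ribosomal protein L47 (NO22G01900) and a methylenetetrahydrofolate reductase (NO17G01280) followed, with r from 0.988 to 0.992. High CO2 replicate 3 was the lowest library both at NO12G00390 and at subunit A, which had 119.9 TPM there. For NO12G00370 the closest were a D-beta-hydroxybutyrate dehydrogenase (NO10G00620, r = 0.993), a copper-zinc superoxide dismutase (NO09G00950), a tRNA methyltransferase (NO09G01450), a lysine-specific demethylase (NO03G04630) and a tripartite motif protein (NO02G04010, r = 0.985). The sum was closest to a YPK1-type protein kinase (NO28G01200, r = 0.992), a pyruvate carboxylase (NO15G00270), the urea-proton symporter DUR3 (NO29G01570, r = 0.986), an adipocyte plasma membrane-associated protein homologue (NO15G00840) and a NifU-like protein (NO13G02740, r = 0.979). DUR3 is itself on the transporter list, with 138 ± 18.5 TPM in low CO2 and 77.5 ± 2.90 TPM in high CO2 (SD, n = 3 each), and it did not pass.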

How the data were processed

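Poly(A) RNA-seq tables of 6 libraries were used. The submitters' processing notes name edgeR, StringTie, featureCounts, Picard, STAR and Trim Galore, without versions or roles, and the genome build was not given in the sources used here. Per the file headers, the authors deposited expected counts (not normalized), TPM, FPKM and a length in bases per gene. The authors' table also gives log2 fold changes and p-values. Expected counts were rounded, filtered by filterByExpr, scaled by TMM and tested with edgeR 4.0.16 in R 4.3.3 (robust quasi-likelihood, Benjamini-Hochberg), low minus high CO2. On simulated counts with 1 common dispersion, the test recovered 8%, 36%, 100% and 100% of genes changed 1.5-, 2-, 4- and 8-fold. Of its calls, 3.17% were unchanged genes. A gene that did not pass may thus still differ by 2-fold. It may also differ by more. No fold between 2 and 4 was simulated, and the simulation held no libraries that stood apart. A potassium channel gene on the transporter list did not pass at a fitted 2.62-fold difference (adjusted p = 0.104 in edgeR's quasi-likelihood test). DESeq2 1.42.0 and limma 3.58.1 served as alternatives, and Python 3.11.15 and SciPy 1.17.1 did the rest.

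The loci and lists were chosen with earlier results of these data known. The design foresaw whole counts, and list patterns were spelled out once descriptions were at hand. Named genes are the 3 loci, 5 loci on either side, up to 3 called genes per direction and the 2 most abundant of each list, and 5 genes of most similar pattern (mean of at least 50 counts). SE is the log2 fold change over the root of F. Groups and replicate numbers came from titles. Same-numbered cultures did not deviate together (r = -0.36, 0.08 and -0.43 across 9244 genes), so the numbers were not taken as pairs.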

Additional observations from a re-analysis of the deposited data

How the results depend on the processing

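The log2 fold changes of NO12G00380 and NO12G00390 stayed above 0 under all 14 alternatives, from 2.28 to 2.98 and from 1.86 to 2.60. The log2 fold change of the sum also stayed above 0, from 0.71 to 1.39, the latter by limma on summed FPKM. That of NO12G00370 ran from -0.30 to 0.31 and was below 0 without low CO2 replicate 1 (-0.30) and without both libraries that stood apart (-0.25). Leaving out 1 library gave 2.28 to 2.98 for NO12G00380 and 0.71 to 1.35 for the sum. From shares of summed TPM or FPKM, the difference was -43.7 percentage points for NO12G00370 and 41.6 for NO12G00380. NO17G00440 ran from -0.091 (without low CO2 replicate 1) to 0.27 with 1 library left out.

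Over all genes, 196 of 9244 were called, 21 of 9244 with the replicate block, 581 of 10204 by DESeq2 and 213 of 9244 with the length trend removed. The calls were 193 of 10204 without a filter, 209 of 8098 with a mean of at least 50 counts and 196 of 9244 with RLE scaling. They were 18 to 1610 with 1 library left out and 3402 of 9300 without both that stood apart. Among other P-type ATPases (2 calls of 29 tested), there were 0 of 29 with the replicate block, 4 of 30 by DESeq2 and 1 of 29 with the length trend removed. With 1 library left out there were 0 to 8, and without both 16 of 30. Among other proton pumps (0 calls of 13 tested), there was 1 without a filter, with a mean of at least 50 counts, with RLE scaling, by DESeq2 and with the length trend removed. With 1 library left out there were 0 to 3, and without both 8 of 13. Among F-type subunits (0 calls of 6 tested) there were 4 without both. Among ion and nutrient transport genes (3 calls of 60 tested) there was 1 of 60 with the replicate block and 10 of 63 by DESeq2. With 1 library left out there were 1 to 15, and without both 31 of 60. The cause was not tested.

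Same-numbered cultures did not deviate together across all genes tested, but a weaker pairing by replicate number was not excluded. Values of each locus rest on divided reads, as does the sum in TPM or FPKM, whereas the summed counts do not. Low CO2 replicate 1 still moved the summed counts about as much as those of NO12G00370 and NO12G00380. The intervals of the shares cover counting error only.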
